A study of Mus musculus with 12 samples.

Results

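The transcripts described here are those of 9 S100 calcium-binding proteins, S100a1, S100a4, S100a6, S100a8, S100a9, S100a10, S100a11, S100a13 and S100a16, in bulk RNA sequencing of whole mouse liver. The members were taken by gene name and are 9 of 20775 genes counted in chow livers and 22709 genes counted in diet-fed livers, and 20093 genes were in both tables. All 9 passed the filter on low counts in every comparison, S100a4 in chow only through the livers labelled HuRHep-/-. There were 12 libraries, 3 in each of 4 groups, from male C57BL/6N mice with a floxed Elavl1 gene, which encodes the RNA-binding protein HuR. By the labels the mice were 4 to 6 months old. Chow WT mice received the control virus AAV8-Tbg-null and normal chow, and Chow HuRHep-/- mice received AAV8-Tbg-Cre, which expresses Cre from a hepatocyte promoter, and normal chow. HFCF WT and HFCF HuRHep-/- mice had the same viruses and alleles and were kept on a high fat, cholesterol and fructose (HFCF) diet (40% of kcal as fat, 2% cholesterol, 20% of kcal as fructose) for 16 weeks. The floxed alleles are thus shared by all 4 groups, and only hepatocytes were targeted, so the other cells of the liver keep the gene. The study's methods describe an albumin-Cre cross instead of a virus for its mice, and a younger age, and the count tables cannot tell these apart.

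Elavl1 counts went against the genotype labels. In chow livers the gene had 938, 876 and 948 counts in the libraries labelled WT and 1475, 1265 and 1261 in those labelled HuRHep-/-. In HFCF livers it had 904, 791 and 849 counts in those labelled WT and 1299, 1242 and 1271 in those labelled HuRHep-/-. The deposited counts are per gene and do not show which exons were read. Every genotype comparison below is therefore between libraries by their labels. Library totals ran from 30071731 to 35949203 counts. HFCF WT replicate 2 stood apart from its group: on the first principal component, which held 46.1% of the variance, it scored -11.3, against 20.4 and 35.0 for the other HFCF WT libraries and -38.6 or lower for Chow WT. Hepatocyte markers were abundant in all livers, and their summed level differed between groups: 104414 to 127075 CPM (counts scaled to library size, per 1000000) in Chow WT, 82492 to 93774 in Chow HuRHep-/-, 74364 to 85334 in HFCF WT and 65121 to 71083 in HFCF HuRHep-/-. Because each diet was deposited as a table of its own, diet and table cannot be told apart. The study describes its chow livers as those of separate mice. For the HFCF livers the labels give replicate numbers only, so there the p-values measure the spread between these samples, whatever their source.

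S100 proteins are small EF-hand proteins, mostly dimers, and most of them change shape when they bind calcium and then dock onto partner proteins. S100a10, also called p11, is an exception that does not bind calcium and binds annexin A2 without it. Inside cells S100a11 binds annexin A1, and S100a10 and S100a11 both take part in membrane repair and vesicle traffic. S100a8 and S100a9 form calprotectin, which neutrophils and monocytes store in large amounts and release as a danger signal for the receptors Tlr4 and RAGE. S100a4 and S100a6 are known from fibroblasts, macrophages and other motile cells, and S100a1 from muscle, where it acts on calcium pumps and channels.

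All 9 genes lie on chromosome 3 (GRCm38). The 7 genes from S100a1 to S100a9 lie within 185 kb, from position 90511034 to 90695721, and S100a11 and S100a10 lie 44.2 kb end to end, from 93520488 to 93564643. S100a1 (90511034 to 90514392, minus strand) and S100a13 (90514435 to 90524581, plus strand) point away from each other. Their RefSeq start sites in GRCm38.p6, at 90514330 and 90514435, are separated by 104 bases, shown here because the neighbours share them. None of the 4 motifs searched was found in the start region of either gene.
S100a1 and S100a13, chr3:90514331-90514434, plus strand: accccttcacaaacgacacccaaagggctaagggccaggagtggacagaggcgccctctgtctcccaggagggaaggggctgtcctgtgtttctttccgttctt

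Stretches of 250 bases upstream of the start were taken from RefSeq for the members whose levels changed most with diet and for the calprotectin pair. Start regions, from 250 bases before to 50 after the start, were found for 8 of the 9 members, and S100a10 is named only. Capitals mark matches, on either strand, to the TATA box letters TATAAA, to the GC box letters GGGCGG, to the AP-1 letters TGANTCA or to the C/EBP letters TTGCNNAA.
S100a4, chr3:90603520-90603769, plus strand: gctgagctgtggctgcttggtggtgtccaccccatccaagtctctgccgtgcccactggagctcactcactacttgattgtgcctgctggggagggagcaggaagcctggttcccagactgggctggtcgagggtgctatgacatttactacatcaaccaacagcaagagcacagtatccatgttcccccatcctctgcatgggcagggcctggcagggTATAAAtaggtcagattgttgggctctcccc
S100a11, chr3:93520246-93520495, plus strand: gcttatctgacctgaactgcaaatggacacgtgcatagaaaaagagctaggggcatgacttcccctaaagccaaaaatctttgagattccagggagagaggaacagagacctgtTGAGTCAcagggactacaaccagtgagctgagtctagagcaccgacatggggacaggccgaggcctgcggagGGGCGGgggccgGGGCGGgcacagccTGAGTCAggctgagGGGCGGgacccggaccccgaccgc
S100a8, chr3:90668821-90669070, plus strand: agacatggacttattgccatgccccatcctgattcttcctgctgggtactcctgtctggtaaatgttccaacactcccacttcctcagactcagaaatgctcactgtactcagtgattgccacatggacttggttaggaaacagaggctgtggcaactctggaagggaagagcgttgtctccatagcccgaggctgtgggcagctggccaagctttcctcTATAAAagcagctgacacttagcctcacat
S100a9, chr3:90695722-90695971, minus strand: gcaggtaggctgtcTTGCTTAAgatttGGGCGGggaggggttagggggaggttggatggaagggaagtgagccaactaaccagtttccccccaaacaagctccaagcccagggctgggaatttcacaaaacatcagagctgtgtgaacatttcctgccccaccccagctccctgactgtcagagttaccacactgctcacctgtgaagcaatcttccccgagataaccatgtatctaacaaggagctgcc
S100a4 and S100a8 each held a TATA box, at 31 and 30 bases before the start, a motif present in 13.6% of 32851 start regions. S100a11 held 3 GC boxes, where 35.7% of start regions hold at least 1, and 2 AP-1 motifs, which 7.81% hold, with no overlap between them. S100a9 held a GC box and a C/EBP motif, which 10.8% hold, and a TATA box at the start itself that lies outside the stretch shown. S100a6 and the first start of S100a16 held none of these letters, and the second start of S100a16 held a GC box and an AP-1 motif. A match is a description of the sequence and not a bound site.

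Compared per kb of annotated exon, the family spanned more than 2 orders of magnitude in each group. S100a1 had the highest level, 151 ± 20.7 CPM per kb (SD, n = 3) in Chow WT and 123 ± 7.07 in HFCF HuRHep-/-. S100a10 came next, at 54.3 ± 1.71 CPM per kb in Chow WT and 39.1 ± 7.56 in Chow HuRHep-/-, without overlap with S100a1. In HFCF livers S100a10 reached 115 ± 26.7 in those labelled WT and 118 ± 21.8 in those labelled HuRHep-/-, and its range overlapped that of S100a1 in both. S100a13 was next in both chow groups, at 32.3 ± 5.38 and 18.01 ± 3.43 CPM per kb, and S100a11 took that place in both HFCF groups, at 50.1 ± 30.7 and 77.6 ± 3.01. The ranges of S100a11 and S100a13 overlapped in HFCF WT, and those of S100a11 and S100a16 overlapped in both chow groups. S100a6, S100a9, S100a8 and S100a4 were the lowest 4 in each group, from 0.471 ± 0.0667 CPM per kb for S100a4 in Chow WT to 3.84 ± 0.67 for S100a6 in HFCF HuRHep-/-. The plot of levels per exon length shows this order and the upward step of S100a10 and S100a11 in HFCF livers.

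**Figure D1:**
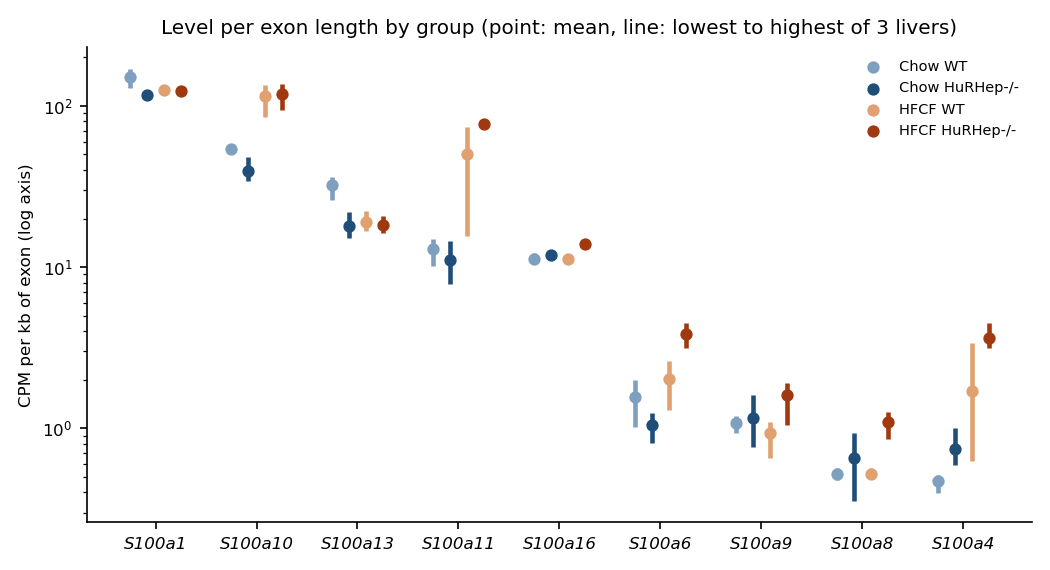
Level of each S100 transcript in CPM per kb of annotated exon (log axis), by group, with the mean of 3 livers as a point and the lowest to the highest liver as a line. S100a1 is highest in all groups, S100a10 and S100a11 are higher in the HFCF groups, and S100a4, S100a6, S100a8 and S100a9 stay at or under 4.52 CPM per kb.

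The diet comparisons asked how S100 transcripts differed between HFCF and chow livers of the same genotype label. In livers labelled HuRHep-/-, S100a4, S100a6, S100a10 and S100a11 rose, and no member fell. These 4 of 9 called members stand beside 19.1% of all 14535 genes tested (2770 called, 2058 higher and 712 lower in HFCF), where a called gene had a limma adjusted p of at most 0.05, differed 1.5-fold or more and held 10 or more counts in each group. The median log2 difference of the 9 members was 0.80, and that of all genes was 0.00.

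S100a11, the annexin A1 partner, had the largest difference among the members. It had 256, 178 and 130 counts in Chow HuRHep-/- and 1527, 1587 and 1475 in HFCF HuRHep-/-, or 5.64 ± 1.71 and 39.6 ± 1.54 CPM (SD, n = 3). No HFCF liver overlapped a chow liver, and the HFCF livers were nearly level with each other. The difference was 7.23-fold (log2 2.85, SE 0.46, limma adjusted p = 0.000923). Of the words of 31 bases in its exons, 48.9% also occur in other genes, mostly in Gm12854, so its reads may be shared. Gm12854 had no counts listed under that name, and how shared reads were assigned is not known.

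S100a10, the annexin A2 partner, had 2000, 1336 and 1397 counts in Chow HuRHep-/- and 5980, 6365 and 4213 in HFCF HuRHep-/-. The lowest HFCF liver, at 113 CPM, was well above the highest chow liver, at 58.0 CPM. The difference was 3.00-fold (log2 1.59, SE 0.18, adjusted p = 0.000219).

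S100a6, which binds the ubiquitin ligase adaptor Cacybp, had 51, 55 and 36 counts in Chow HuRHep-/- and 173, 205 and 228 in HFCF HuRHep-/-, a 3.66-fold difference (log2 1.87, SE 0.30, adjusted p = 0.000929) without overlap. S100a4, which binds non-muscle myosin (Myh9), had 12, 19 and 12 counts in chow and 74, 74 and 98 in HFCF, also without overlap. It rose 4.84-fold (log2 2.27, SE 0.49, adjusted p = 0.00427). S100a4 overlaps the same-strand gene Gm42674 over 51.7% of its exon bases, so its reads may be shared. Gm42674 had no counts listed under that name.

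The remaining 5 members were not called in livers labelled HuRHep-/-. S100a16 had 683, 598 and 623 counts in chow and 870, 838 and 875 in HFCF, without overlap, but its difference of 1.16-fold was below the fold limit (log2 0.22, adjusted p = 0.0309). S100a8 differed by 0.80 on the log2 scale (adjusted p = 0.0862) and S100a9 by 0.47 (adjusted p = 0.308), and their groups overlapped. S100a1 and S100a13 differed by 0.07 and 0.03, with 95% intervals from -0.12 to 0.26 and from -0.33 to 0.39.

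In livers labelled WT, S100a10 and S100a11 rose with the diet and S100a13 fell, 3 of 9 members beside 9.38% of 14535 genes (1363 called, 892 higher and 471 lower). The count over all genes was 847 without Chow WT replicate 1 and 874 without HFCF WT replicate 3. S100a10 had 2057, 1902 and 2023 counts in Chow WT and 5766, 3368 and 5155 in HFCF WT, with no overlap. It differed 2.08-fold (log2 1.06, SE 0.18, adjusted p = 0.00281). S100a11 had 158, 213 and 234 counts in Chow WT and 1181, 259 and 1188 in HFCF WT. HFCF WT replicate 2, with 7.91 CPM, lay just above the highest Chow WT liver, at 7.65 CPM, while the other HFCF WT livers had 31.2 and 37.7 CPM. The log2 difference of S100a11 was 1.68 (SE 0.46, adjusted p = 0.0214), and it was 2.38 (adjusted p = 0.000130) without HFCF WT replicate 2. Its call was lost without Chow WT replicate 1, HFCF WT replicate 1 or HFCF WT replicate 3, where the log2 difference was 1.51, 1.39 and 1.26 and the adjusted p was 0.0783, 0.0790 and 0.0826.

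S100a13, which is known for the release of Fgf1 and interleukin 1 alpha from cells, was the only member that fell with the diet in livers labelled WT. Its counts were 758, 559 and 786 in Chow WT and 485, 391 and 498 in HFCF WT, or 23.1 ± 3.84 and 13.5 ± 2.04 CPM, without overlap. It was 1.70-fold lower (log2 -0.77, SE 0.16, adjusted p = 0.00707). S100a1, its divergent neighbour, was also lower in every HFCF WT liver than in every Chow WT liver (86.6 to 88.2 against 89.5 to 118 CPM), but the difference of -0.26 on the log2 scale was not called (adjusted p = 0.0530). Hepatocyte markers, summed, were likewise lower in HFCF WT and in Chow HuRHep-/- than in Chow WT. Of 8 of them, 2 fell with the diet under the WT label and 3 under the HuRHep-/- label, and between genotype labels 0 were called in chow and 1 in HFCF, Cyp2e1, as 0.76 lower on the log2 scale in HFCF HuRHep-/- (adjusted p = 0.0464). Their part in the S100a13 and S100a1 differences was not tested.

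S100a4 had 7, 9 and 9 counts in Chow WT and 24, 12 and 62 in HFCF WT. All HFCF livers were above all chow livers, and the HFCF livers were far apart. The log2 difference was 1.44 (SE 0.49, adjusted p = 0.0504), just short of the limit, and 1.97 (adjusted p = 0.00890) without HFCF WT replicate 2, where it was called. It was 0.78 without HFCF WT replicate 3, and the adjusted p of the fits without 1 library reached 0.156. S100a6 had 42, 81 and 70 counts in Chow WT and 135, 58 and 93 in HFCF WT, with overlap, and differed by 0.37 (adjusted p = 0.394). On leaving out each library this difference ran from 0.09 to 0.66. S100a16, S100a8 and S100a9 differed by -0.01, -0.02 and -0.23 on the log2 scale and their groups overlapped.

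**Figure D2:**
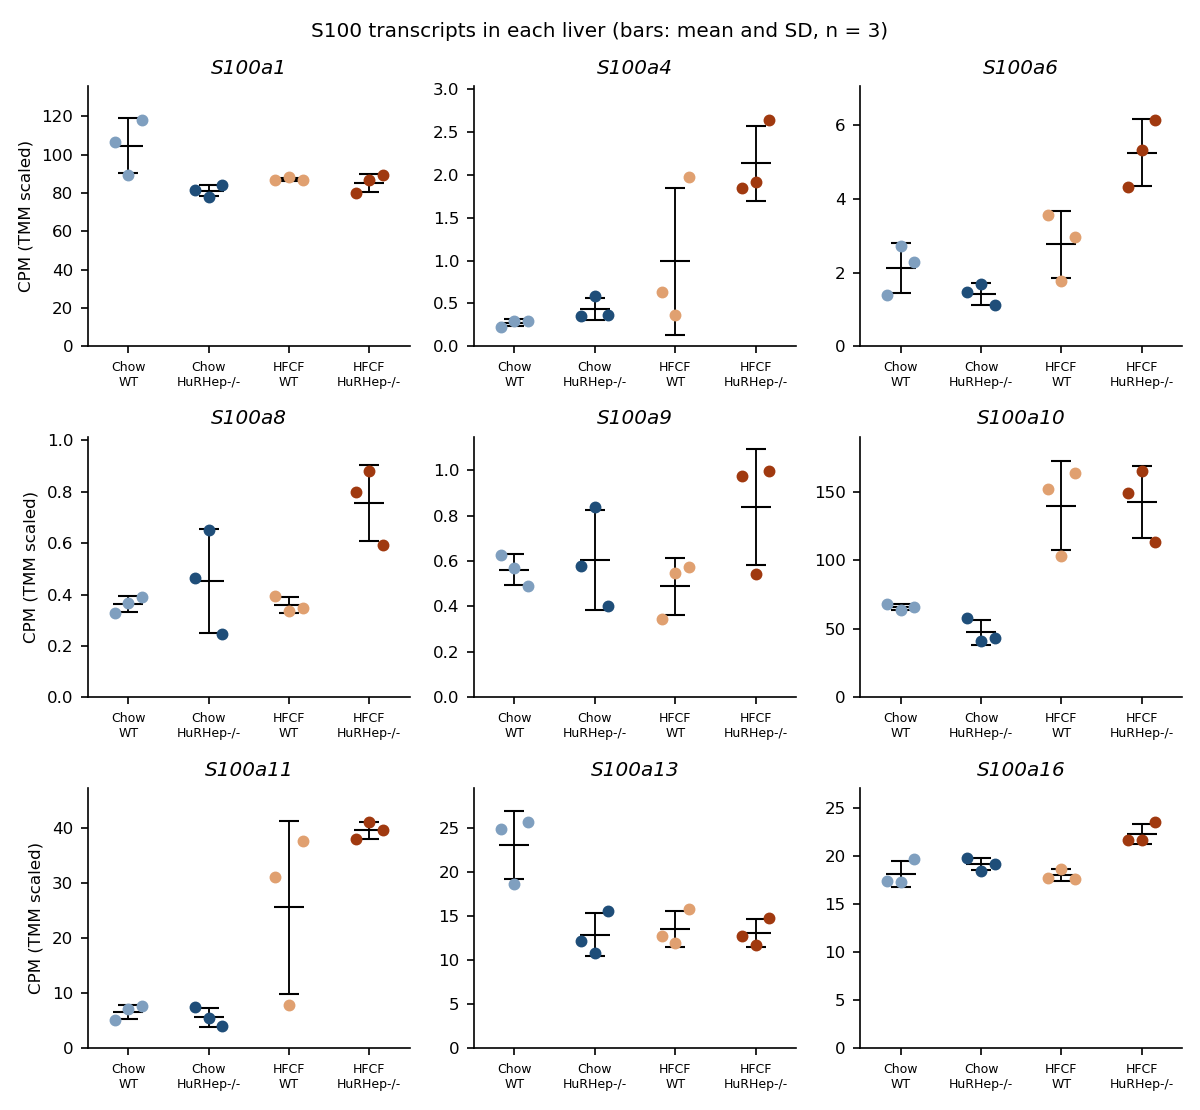
CPM of each of the 9 S100 transcripts in each liver (points, replicates 1 to 3 from left to right), with the mean and SD of the 3 livers of each group as black lines. For S100a11 all HFCF livers but replicate 2 of HFCF WT lie between 31.2 and 41.1 CPM, and the chow livers lie between 4.00 and 7.65 CPM.

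The genotype comparison in chow asked how livers labelled HuRHep-/- differed from livers labelled WT without the diet. S100a13 was called, as lower, and no other member, 1 of 9 beside 2.24% of 13526 genes (303 called, 172 higher and 131 lower). The count over all genes was 8 without Chow HuRHep-/- replicate 2, 95 without Chow HuRHep-/- replicate 1, 110 without Chow WT replicate 1 and 79 without Chow WT replicate 3. S100a13 had 421, 350 and 507 counts in livers labelled HuRHep-/-, all under the lowest of the livers labelled WT, which had 758, 559 and 786. This was a 1.79-fold lower level (log2 -0.84, SE 0.16, adjusted p = 0.0354). The call depended on single livers: without Chow WT replicate 1 or 3, or Chow HuRHep-/- replicate 1 or 2, the log2 difference was -0.78, -0.76, -0.81 and -0.72 and the adjusted p was 0.108, 0.115, 0.106 and 0.141.

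The divergent neighbour S100a1 was not called. Its counts were 3241, 2677 and 3613 in Chow WT and 2811, 2523 and 2731 in Chow HuRHep-/-, or 105 ± 14.4 and 81.2 ± 2.98 CPM. The CPM ranges did not overlap, and the log2 difference was -0.35 (SE 0.10, adjusted p = 0.0868). S100a10 was also lower in each liver labelled HuRHep-/- (41.4 to 58.0 CPM) than in each labelled WT (63.6 to 67.7 CPM), with a log2 difference of -0.48 (adjusted p = 0.0725) that was not called. Without Chow HuRHep-/- replicate 1 it was -0.64 and called (adjusted p = 0.0280), and over the fits without 1 library it ran from -0.64 to -0.39. S100a4 had 7, 9 and 9 counts in Chow WT and 12, 19 and 12 in Chow HuRHep-/-. It passed the filter in chow only through the livers labelled HuRHep-/-, and could not be tested when one of these was left out, so its higher level there (log2 0.60, adjusted p = 0.364, not called) supports nothing.

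In HFCF livers no member was called between the genotype labels, beside 3.62% of 14295 genes (517 called). The count over all genes was 28, 32 and 98 without HFCF HuRHep-/- replicate 1, 2 and 3, 39 without HFCF WT replicate 1 and 850 without HFCF WT replicate 3. At an unadjusted limma p under 0.05 there were 4 of 9 members, all higher in livers labelled HuRHep-/-, beside 4218 of 14295 genes, and limma with voom weights also called 0. S100a16 came closest, with 670, 613 and 555 counts in HFCF WT and 870, 838 and 875 in HFCF HuRHep-/-, or 18.01 ± 0.61 and 22.3 ± 1.07 CPM. Its ranges did not overlap, and the log2 difference was 0.29 (SE 0.07, adjusted p = 0.0540), below the fold limit. S100a6 was 0.95 higher on the log2 scale (SE 0.27, adjusted p = 0.0767), with 2.76 ± 0.91 CPM in HFCF WT and 5.26 ± 0.92 in HFCF HuRHep-/-, again without overlap.

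S100a4 had 24, 12 and 62 counts in HFCF WT and 74, 74 and 98 in HFCF HuRHep-/-. HFCF WT replicate 3, at 1.97 CPM, lay within the range of livers labelled HuRHep-/-, 1.84 to 2.64 CPM. The log2 difference was 1.41 (SE 0.56, adjusted p = 0.148), and without that library it was 2.08 and called (adjusted p = 0.0267). It was 0.89 without HFCF WT replicate 2, and the adjusted p of the fits without 1 library reached 0.315. S100a11 was 0.90 higher (SE 0.53, adjusted p = 0.296), and 0.19 higher (adjusted p = 0.243) without HFCF WT replicate 2. S100a10, S100a13 and S100a1 differed by 0.03, -0.06 and -0.05, and their 95% intervals ran from -0.45 to 0.50, from -0.37 to 0.26 and from -0.20 to 0.10.

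**Figure D3:**
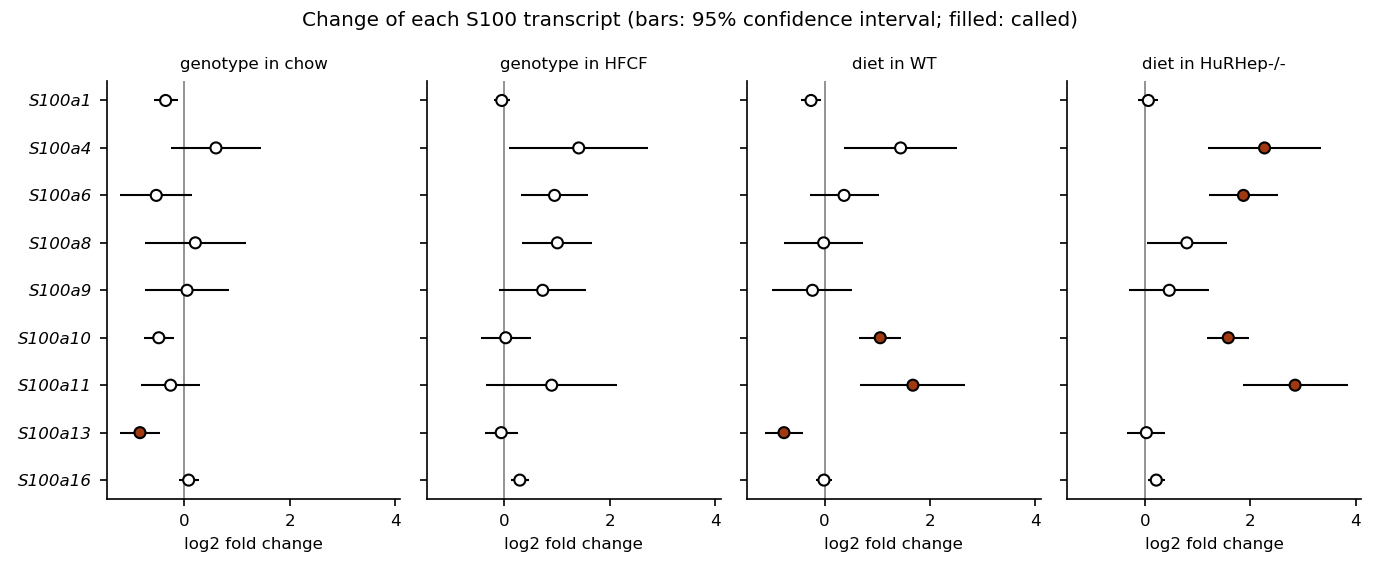
Log2 fold change of each S100 transcript (points) with its 95% confidence interval from limma (lines), for HuRHep-/- against WT in each diet and for HFCF against chow in each genotype label, where filled points are called. S100a10 and S100a11 are called in both diet comparisons, S100a4 and S100a6 in livers labelled HuRHep-/-, and S100a13 is called as lower in Chow HuRHep-/- and in HFCF WT.

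With both diets fitted together, no member was called between the genotype labels, beside 5.07% of 14535 genes (737 called). An unadjusted p under 0.05 was found for 5 of 9 members beside 5048 of 14535 genes, and voom weights also gave 0 calls. S100a13 (log2 -0.44, adjusted p = 0.0217), S100a16 (0.19, adjusted p = 0.0218) and S100a1 (-0.20, adjusted p = 0.0460) passed the p limit but not the fold limit. S100a4 had the largest estimate (1.01, adjusted p = 0.0604) and was called without HFCF WT replicate 3 (1.35, adjusted p = 0.00376). Without HFCF WT replicate 2 it was 0.75, and the adjusted p of the fits without 1 library reached 0.134. S100a8 (0.61, adjusted p = 0.0976) was called without Chow HuRHep-/- replicate 3 (0.80, adjusted p = 0.0212), and was 0.46 without Chow HuRHep-/- replicate 2. An interaction term tested whether the genotype effect differed by diet. It was called for 0 of 9 members and 0 of 14535 genes (0%), with limma and with voom weights, while 4 members and 2086 genes had an unadjusted p under 0.05. Without HFCF WT replicate 3 it was called for 34 genes, and without Chow WT replicate 2 for 2. The interaction estimate was largest for S100a6, at 1.504 on the log2 scale (95% interval 0.58 to 2.43, adjusted p = 0.189). For S100a13 it was 0.80 (0.29 to 1.31, adjusted p = 0.198) for log2 differences between the labels of -0.84 in chow and -0.06 in HFCF. All comparisons with the same group share its 3 livers. With 3 livers against 3, an exact permutation test of a single gene cannot give a two-sided p below 0.1.

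S100a8 and S100a9, the subunits of calprotectin, were scarce in all livers, with 8 to 34 and 13 to 39 counts per library. S100a8 had 10, 11 and 12 counts in Chow WT, 16, 21 and 8 in Chow HuRHep-/-, 15, 11 and 11 in HFCF WT, and 32, 34 and 22 in HFCF HuRHep-/-. The HFCF HuRHep-/- livers were above all HFCF WT livers, and the log2 difference of 1.01 (SE 0.28, adjusted p = 0.0741) was not called. S100a9 had 19, 17 and 15, then 20, 27 and 13, then 13, 18 and 18, and then 39, 21 and 37 counts in the same order of groups. Its groups overlapped in all comparisons, and the log2 difference between genotype labels in HFCF was 0.73 (SE 0.35, adjusted p = 0.214).

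Neutrophil markers were as scarce. Of 17 listed, 16 averaged under 10 counts per library, and their summed level was 1.25 to 2.72 CPM in chow livers, 2.17 to 3.59 in HFCF WT and 4.50 to 5.14 in HFCF HuRHep-/-. The defining marker Ly6g was listed for HFCF livers, with 0 counts in 5 of them and 1 count in replicate 3 of HFCF HuRHep-/-, and the granule enzyme gene Mpo had 0 to 4 counts per library. Elane, another granule enzyme gene, had 0, 1 and 3 counts in Chow WT and 4, 5 and 4 in Chow HuRHep-/-, and 30, 10 and 15 in HFCF WT and 16, 12 and 14 in HFCF HuRHep-/-. Of 3 neutrophil markers tested over both diets, Csf3r rose with the diet in livers labelled HuRHep-/- (log2 1.06, adjusted p = 0.0112), and none was called between genotype labels or with the diet in livers labelled WT. Elane could not be called in comparisons with Chow WT, where its counts fell short of 10 over the group. Monocyte markers summed to 4.64 to 10.2 CPM in chow livers, 8.61 to 15.2 in HFCF WT and 18.9 to 22.5 in HFCF HuRHep-/-. Of 7 monocyte markers tested, 2 were called as higher in HFCF HuRHep-/- than in HFCF WT, 2 over both diets and 2 with the diet under each genotype label. In chow livers alone the filter on low counts passed 4 of 8 listed monocyte and 1 of 17 neutrophil markers. The part of these cells in the S100a8 and S100a9 levels was not tested. In whole liver, fewer cells of a type and less RNA per cell cannot be told apart.

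Annexins are the best known docking partners of S100 proteins. Of 12 listed, 11 were tested over both diets. With the diet, 4 rose under the WT label and 6 under the HuRHep-/- label, and none fell, with median log2 differences of 0.42 and 1.19. Anxa2, the partner of S100a10, had 8.82 to 10.8 CPM in Chow WT, 46.8, 19.4 and 67.1 in HFCF WT replicates 1 to 3, and 88.6 to 112 in HFCF HuRHep-/-. It rose by 2.00 on the log2 scale in livers labelled WT (adjusted p = 0.00239) and by 3.61 in those labelled HuRHep-/- (adjusted p = 7.25e-05). The liver with the lowest S100a10 among HFCF WT was also the lowest for Anxa2.

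Anxa1, the partner of S100a11, rose by 1.43 on the log2 scale in livers labelled HuRHep-/- (adjusted p = 0.00138) and differed by 0.42 in those labelled WT (adjusted p = 0.233). Anxa5, which binds exposed phosphatidylserine, rose in both, by 1.18 (adjusted p = 0.0101) and 1.68 (adjusted p = 0.000967). Anxa8 and Anxa3 also rose under both labels, Anxa8 by 1.86 and 2.43 and Anxa3 by 0.88 and 1.35. Anxa11 and Anxa6, both reported to bind S100a6, differed by 0.19 and 0.09 in livers labelled WT and by 0.01 and 0.08 in those labelled HuRHep-/-, and were not called. Between genotype labels, Anxa13 was the only annexin called, as 1.48 higher in HFCF HuRHep-/- (adjusted p = 0.0468).

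**Figure D4:**
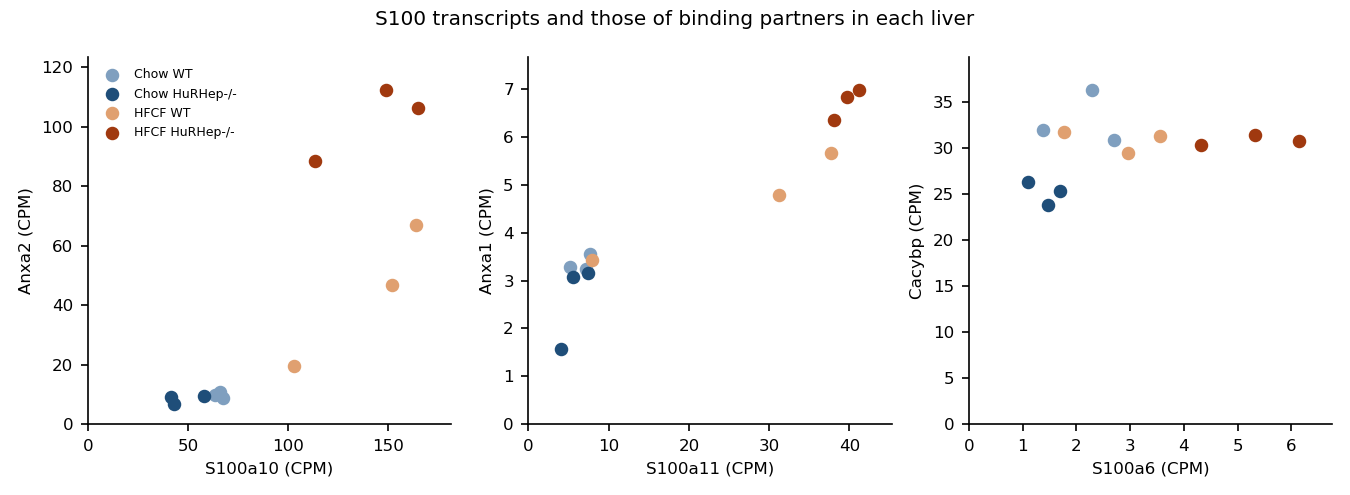
CPM of S100a10 and Anxa2, S100a11 and Anxa1, and S100a6 and Cacybp in each of the 12 livers, coloured by group. The HFCF livers lie to the right in the S100a10 and Anxa2 panel with Anxa2 from 19.4 to 112 CPM, while Cacybp stays between 23.8 and 36.3 CPM over the range of S100a6.

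Among 10 listed receptors and receptor partners of extracellular S100 proteins, Cd36, which takes up fatty acids and is reported to bind S100a8 and S100a9 complexes, was the one called in more than 1 comparison. It fell by 0.97 on the log2 scale in Chow HuRHep-/- (adjusted p = 0.0305) and rose with the diet by 1.96 in livers labelled WT (adjusted p = 0.000649) and by 2.81 in those labelled HuRHep-/- (adjusted p = 6.50e-05). In livers labelled HuRHep-/- 3 others rose with the diet: Cd14, a co-receptor of Tlr4, by 1.74, Mcam by 1.23 and Tlr4 by 1.07. Ager, which encodes RAGE, had 0.154 to 0.508 CPM and was not called.

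Of 9 listed intracellular partners, 3 rose and 1 fell with the diet in livers labelled HuRHep-/-. Plat, the tissue plasminogen activator that S100a10 binds, was 2.63 higher on the log2 scale (adjusted p = 0.0209), the scaffold gene Iqgap1 1.19 higher (adjusted p = 0.00225) and Myh9 0.82 higher (adjusted p = 0.000620). Plg, which encodes plasminogen, fell by 0.73 (adjusted p = 0.00143). None of the 9 was called with the diet in livers labelled WT, where Myh9 passed the p limit at 0.48 (adjusted p = 0.0163). In chow, Ppfibp1, which S100a4 binds, was 0.59 higher in livers labelled HuRHep-/- (adjusted p = 0.0184).

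All 11 stellate cell and fibroblast markers rose with the diet in livers labelled HuRHep-/-, and 1 of 11 in livers labelled WT. Their summed level was 142 to 221 CPM in chow livers, 346, 178 and 427 in HFCF WT replicates 1 to 3, and 422 to 545 in HFCF HuRHep-/-. HFCF WT replicate 2 thus lay within the chow range for these markers, as it lay just above it for S100a11. Markers of lipid-associated macrophages, of which 4 of 9 rose with the diet in livers labelled WT and 8 of 9 in those labelled HuRHep-/-, summed to 93.2 to 214 CPM in chow livers, 205, 85.1 and 247 in HFCF WT and 292 to 490 in HFCF HuRHep-/-. Fabp5, a fatty acid binding protein gene of that list, fell with the diet under both labels.

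For mesothelial cells, which line the liver surface, 0 of 6 markers were called between genotype labels and 4 of 6 rose with the diet in livers labelled HuRHep-/-. Their summed level was 4.74 to 14.1 CPM in Chow WT, 1.08 to 9.35 in Chow HuRHep-/-, 6.48 to 17.5 in HFCF WT and 15.03 to 25.5 in HFCF HuRHep-/-. All 5 tested cholangiocyte markers rose with the diet in livers labelled HuRHep-/-, and 0 of 5 were called in livers labelled WT. Their summed level was 18.8 to 30.3 CPM in HFCF HuRHep-/- and 7.14 to 13.3 in the other groups. Kupffer cell markers summed to 128 to 157 CPM in Chow WT, 179 to 268 in Chow HuRHep-/-, 196 to 304 in HFCF WT and 250 to 435 in HFCF HuRHep-/-. With the diet, 2 of 8 rose in livers labelled WT, and 2 rose and 1 fell in livers labelled HuRHep-/-, and 2 were called as higher in livers labelled HuRHep-/- over both diets. Of the lymphocyte markers 4 of 8 rose with the diet in livers labelled HuRHep-/-, and of the endothelial markers 2 of 7. With the diet in livers labelled WT, 0 of 8 lymphocyte, 0 of 7 endothelial and 0 of 6 mesothelial markers were called. Of 10 acute phase genes 5 were higher in Chow HuRHep-/- than in Chow WT, with summed levels of 5011 to 9776 and 3573 to 3888 CPM, and 7 were higher over both diets and 0 were called in HFCF. With the diet 3 of them rose in livers labelled WT, and 1 rose and 4 fell in livers labelled HuRHep-/-. Between genotype labels, 4 of 9 lipid-associated macrophage markers were called as higher in livers labelled HuRHep-/- over both diets, 1 in chow and 1 in HFCF. Cholangiocyte markers called as higher were 2 of 5 in HFCF and 1 over both diets, and 1 of 11 stellate and fibroblast markers was called as higher in HFCF. The part of these cells in the S100a4, S100a6, S100a10 and S100a11 differences was not tested. In chow livers alone the filter on low counts passed 10 of 11 stellate and fibroblast and 8 of 9 lipid-associated macrophage markers. It passed 6 of 8 lymphocyte markers there.

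Across the 12 libraries, which share diet and genotype groups, the following correlations of log2 CPM are a description. S100a11 was most like Anxa5 (r = 0.99 over 12 libraries, and 0.98 after the group means were taken out), then Cgref1 (0.99) and Ifi27l2b (0.99). S100a4 was most like Siglecf (0.98), Ikzf2 (0.98) and Ctss (0.98). S100a6 was most like Mlph (0.97), Ehd2 (0.97) and Crip1 (0.96), and S100a10 most like Aen (0.98), Cd36 (0.97) and the lipid droplet gene Cidec (0.97). S100a13 was most like Nhp2l1 (0.95), Psenen (0.94) and Nop10 (0.94), and S100a1 most like Eif1ax (0.93), 1010001N08Rik (0.92) and Commd1 (0.92). S100a16 had r = 0.92 with Sept2 and 0.92 with Camk1. The scarce S100a8 had r = 0.91 with Rtn4r, 0.90 with Fam25c and 0.89 with Zfp13, and S100a9 had 0.86 with Gm17102, 0.84 with Ccdc158 and 0.82 with Adrbk1. After the group means were taken out, r ran from 0.54 (S100a16 with Camk1) to 0.99 (S100a11 with Cgref1). For S100a10 it was then 0.87 with Aen, 0.69 with Cd36 and 0.70 with Cidec.

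Among the members themselves, S100a10 and S100a11 had r = 0.92 (0.75 after the group means were taken out), S100a6 and S100a11 had 0.91 (0.75), S100a4 and S100a11 had 0.90 (0.71), and the divergent S100a1 and S100a13 had 0.88 (0.64). S100a8 and S100a9 had 0.61 (0.29). The libraries share their depth and scaling, so these values are not independent of each other.

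HuR is known to bind AU-rich elements in 3' untranslated regions. The core letters ATTTA were not found in the annotated 3' untranslated region of any of the 9 members, which are 68 to 562 bases long with a median of 140. By comparison, 68.7% of 13310 tested genes with such a region held them at a median length of 1119 bases, and 33.1% of the 3933 tested genes whose region was no longer than the 562 bases of S100a16. The regions of the other 8 members are at most 239 bases long, so neither set is matched to them in length. No match says only that these letters are not in this stretch.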

How the data were processed

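Total RNA of 12 livers was sequenced from stranded libraries. The authors used CLC Genomics Workbench with the GRCm38.p6 reference and deposited raw read counts per gene, 1 table per diet, as whole numbers with a comma as digit separator. Members and lists were chosen with earlier results of these data known. Counts were scaled by TMM factors (trims 0.3 and 0.05), and log2 CPM with a pseudocount of 0.5 was tested with limma 3.58.1 (trend) in R 4.3.3, within each diet for genotype and over 12 libraries otherwise. A gene was tested if 3 or more libraries reached the CPM that 10 counts make in a library of median size, with 15 counts in all. P-values were adjusted by Benjamini-Hochberg over all genes tested, and a fold change on this scale understates that of low genes. The named genes were all 9 members, Elavl1, up to 4 called genes per partner list and 3 per marker list and comparison by size, and for each member the 3 genes of highest correlation, of which 1 is not reported here. Some called list genes are given as counts, and a few partner and marker genes outside that rule (Anxa6, Anxa11, Ager, Cacybp, Ly6g, Mpo and Elane among them) were added after values were seen. Positions come from the GENCODE annotation of GRCm38 and start regions from RefSeq. Fits were tested on simulated data. Alternatives are given in the closing section.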

Additional observations from a re-analysis of the deposited data

How the results depend on the processing

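The results were recomputed with upper-quartile or RLE factors, with other filters, a pseudocount of 2, voom weights, no fold limit, fits on 12 libraries for genotype, and leaving out each library. Of 440 member estimates with all libraries kept, 4 had another sign, and 0 of those were called. The number of called members ran, on leaving out each library, from 0 to 1 for genotype in chow, 0 to 1 for genotype in HFCF (S100a4 without HFCF WT replicate 3) and 0 to 1 for genotype over both diets (S100a8 without Chow HuRHep-/- replicate 3, S100a4 without HFCF WT replicate 3). Without a fold limit, 3 members were called over both diets, beside 2729 of 14535 genes, where 737 were called with the limit. With voom weights, S100a11 with the diet in livers labelled WT had a log2 difference of 1.68 and was not called (adjusted p = 0.0548), and S100a4 there was called with RLE (adjusted p = 0.0497) and upper-quartile factors (adjusted p = 0.0486). S100a8 with the diet in livers labelled HuRHep-/- was called only without Chow HuRHep-/- replicate 2 (adjusted p = 0.0345). Calls over all genes moved from 303 to between 8 and 320 in chow, and from 517 to between 28 and 850 in HFCF, on leaving out a library. With the diet in livers labelled WT they moved from 1363 to between 847 (without Chow WT replicate 1) and 1781 (without HFCF WT replicate 2), with 874 without HFCF WT replicate 3, and for the interaction from 0 to at most 34, without HFCF WT replicate 3.

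The replicate numbers did not meet the limit for pairing, a correlation over 0.1 in every pair: deviations of same-numbered livers correlated at -0.03, 0.11 and -0.02 in chow and 0.10, 0.21 and 0.09 in HFCF. Every HFCF liver correlated best with its own number, and in chow not every liver did, which is a hint from the data and not the design. With the replicate number as a block, 1 member was called for genotype over both diets (S100a4, adjusted p = 0.0337) and 4 with the diet in livers labelled WT (S100a4 added, adjusted p = 0.0275), and the other counts of members were as without the block. Calls over all genes moved with the block from 303 to 226 for genotype in chow and from 517 to 764 in HFCF. They moved from 737 to 765 for genotype over both diets and from 1363 to 1452 with the diet in livers labelled WT. Depth limits S100a4, S100a8 and S100a9, which had under 100 counts in every library.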

Other observations

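Of 9 other S100 genes looked for, 5 were counted, and 1 of them, S100g, passed the filter on low counts over both diets. S100g, which encodes the vitamin D dependent calcium carrier calbindin D9k, had 0, 1 and 0 counts in Chow WT and 0, 0 and 2 in Chow HuRHep-/-. It had 7, 6 and 19 counts in HFCF WT and 20, 17 and 26 in HFCF HuRHep-/-. No HFCF liver overlapped a chow liver. It was not called, because the chow groups held fewer than 10 counts, and no fold is given for the same reason. S100a14, S100b, S100a3 and S100a7a had at most 7 counts in any library.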
